A study of Mus musculus with 16 samples.

Results

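The genes described here encode the water and sodium channels of the collecting duct principal cell and the proteins that act with them. They are Aqp2, Aqp3 and Aqp4 (water channels), Scnn1a, Scnn1b and Scnn1g (the alpha, beta and gamma subunits of the epithelial sodium channel ENaC), Fxyd4, Apela and Hsd11b2. The 9 genes were chosen by symbol as known principal cell genes, with earlier results of these data known. All 9 were found among the 52338 genes of the count table. All 9 were also among the 17731 genes that passed the filter on low counts. RNA came from 16 kidney samples of C57BL6 mice, all fed a high-fat diet, at 15 days after treatment. There were 4 libraries in each of 4 groups: vehicle with food ad libitum, vehicle with time-restricted food, FAN ad libitum and FAN time-restricted. FAN is not written out in the labels; the word folic stands in the names of the table's columns. The title of the series names kidney injury and time-restricted feeding, so the comparisons ask how these genes stood after injury under each feeding regimen.

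Principal cells set the final water and salt content of urine. Vasopressin, through its receptor Avpr2 and cyclic AMP, brings aquaporin 2 to the apical membrane. Water leaves the cell through aquaporins 3 and 4 on the basolateral side. Sodium enters through ENaC and is pumped out by the Na,K-ATPase, which Fxyd4 (also called CHIF) modulates. Aldosterone raises this transport through the mineralocorticoid receptor Nr3c2, and Hsd11b2 keeps glucocorticoids from that receptor by inactivating them. Apela is a small secreted peptide and a ligand of the apelin receptor Aplnr. Several of these genes are not exclusive to principal cells: the connecting tubule also uses ENaC, Aqp2 and Hsd11b2, and mouse proximal tubule is known to make some Aqp4.

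Total counts ran from 12450812 to 33976660 per library, and the 9 genes had between 87 and 7675 reads in each. Levels are in CPM, read counts relative to the size of the library, after TMM scaling, which centres most genes on no change. Vehicle libraries are numbered 1 to 4 as in their titles; FAN libraries carry the numbers of the table's columns, which are not those of the titles. Transcripts of the mitochondrial genome took 6.94% to 14.8% of counts in FAN ad libitum libraries and 17.2% to 26.7% in all others. Each column name also holds an S number, under 150 in 7 libraries and above it in the other 9, whose meaning is not given in the sources used here. Both kinds occur in every group, but FAN time-restricted has 1 library (6) with a low number, so each test there among low numbers assumes that this lone library varies like the others. Among the numbers above 150, those of all FAN libraries are higher than those of all vehicle libraries, so treatment and these numbers cannot be told apart there. Nothing in the labels says that samples came from separate animals beyond their being separate samples, so p-values measure the spread between these samples.

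FAN lowered 5 of the 9 genes under ad libitum feeding and raised none after TMM scaling. With libraries scaled by their total counts instead, 3 were lower (Aqp3, Fxyd4 and Apela) and 3 higher (Scnn1b by 0.55, Scnn1g by 0.60 and Hsd11b2 by 0.58 log2 units), and the share of all called genes that were higher went from 52.8% to 83.9%. Apela, Fxyd4 and Aqp3 fell by 1.85, 1.75 and 1.70 log2 units, Aqp4 fell by 3.01 with a wide error, and Scnn1a fell by 0.75. Scnn1b, Scnn1g and Hsd11b2 did not pass the test, and neither did Aqp2. At an adjusted p of 0.05 (Benjamini-Hochberg over all genes tested, edgeR's two-sided quasi-likelihood test), 28.6% of all tested genes were called lower in this comparison and 32.1% higher. The median log2 change was −1.50 over the 9 genes and 0.06 over all tested genes. In kidney RNA, fewer principal cells and less RNA per principal cell cannot be told apart. Under time-restricted feeding, FAN lowered 4 of the 9 genes (Scnn1a, Aqp3, Fxyd4 and Apela) and raised none under both scalings, against 19% of all tested genes called lower and 24.5% higher, with medians of −0.82 over the 9 and 0.05 over all. All 4 FAN libraries were below all 4 vehicle libraries for 5 of the 9 genes ad libitum (25.9% of all tested genes) and for 2 of the 9 under restriction (17.9%).

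**Figure D1:**
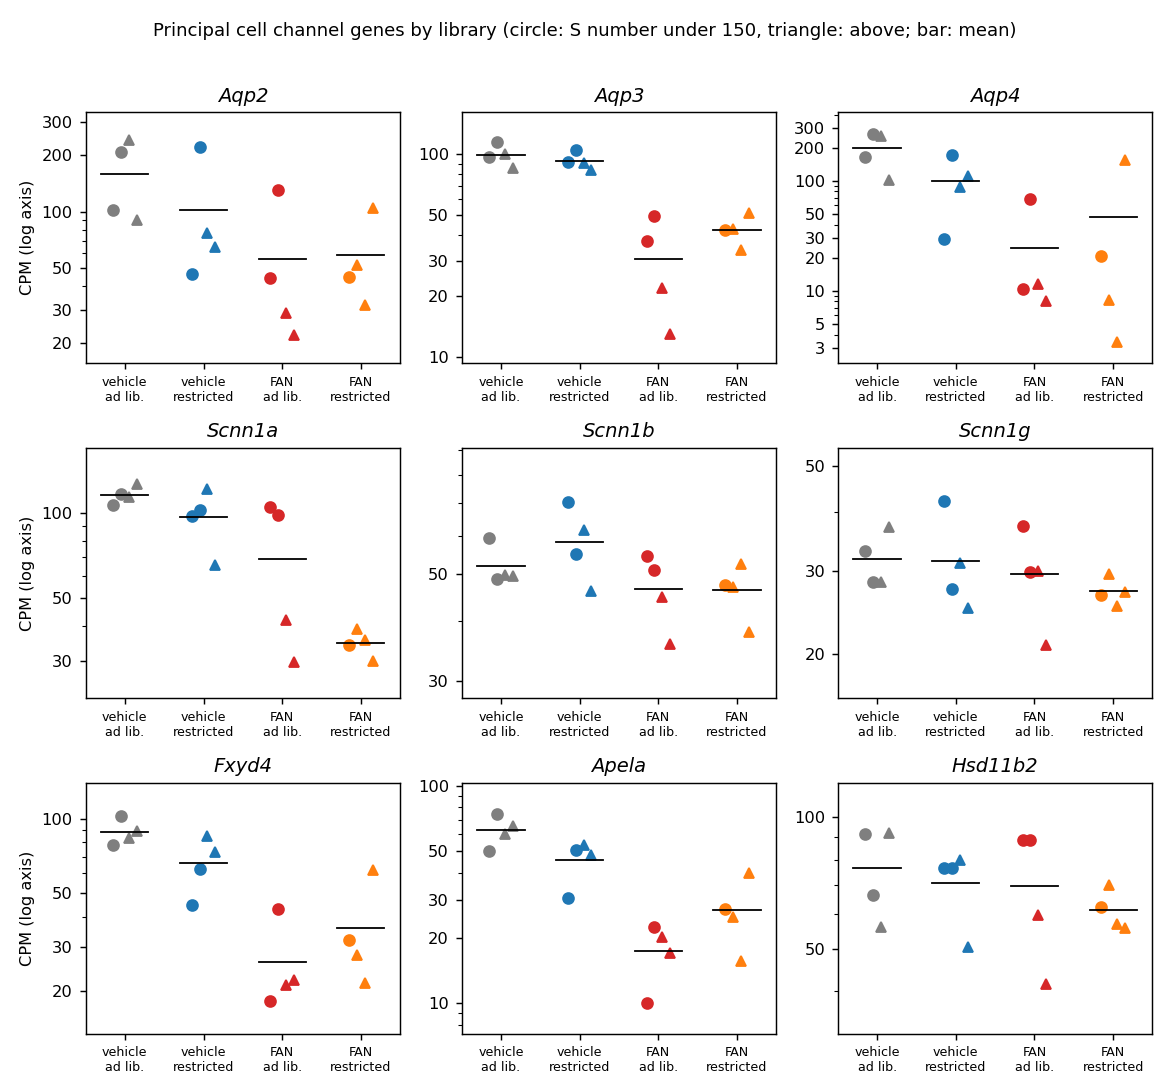
Level of each of the 9 genes in every library, in TMM-scaled CPM on a log axis, by group (n = 4 each). Points are libraries, circles with an S number under 150 and triangles above, and bars are group means. Aqp3, Fxyd4 and Apela separate vehicle from FAN ad libitum libraries, Aqp2 and Aqp4 spread widely within each group, and Scnn1b, Scnn1g and Hsd11b2 overlap across all groups.

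Per kilobase of the deposited transcript length, the highest mean levels in vehicle ad libitum kidneys were those of Aqp2, at 112.6 ± 52.7 CPM per kilobase (SD, n = 4), and Fxyd4, at 108 ± 12.9. Apela followed at 64.1 ± 10.5, Aqp3 at 56.4 ± 6.93, Hsd11b2 at 41.6 ± 9.87 and Aqp4 at 40.3 ± 16.2 CPM per kilobase. The ENaC subunits came last, with Scnn1a at 34.7 ± 2.44, Scnn1b at 20.9 ± 2.01 and Scnn1g at 10.6 ± 1.396 CPM per kilobase. Aqp2 lay within 1 SD of Fxyd4 and Apela, Apela within 1 SD of Aqp3, and Aqp4 within 1 SD of Aqp3, Hsd11b2 and Scnn1a, and Hsd11b2 within 1 SD of Scnn1a, so these places in the order do not differ beyond the spread. The differences among the 3 subunits do. In FAN ad libitum kidneys the order was different. Hsd11b2, at 37.9 ± 12.6 CPM per kilobase, stood beside Aqp2 at 39.7 ± 35.3 and Fxyd4 at 32.0 ± 14.0. Aqp4 was the lowest of the 9 at 4.99 ± 5.93 CPM per kilobase, below Scnn1g at 9.89 ± 2.26, although these means lie within 1 SD of Aqp4.

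Aqp3, the basolateral channel for water and glycerol, is encoded on chr4:41092722-41098183 (minus strand, GRCm38). It stood at 96.95, 115, 100.2 and 85.5 CPM in vehicle ad libitum libraries 1 to 4 and at 91.2, 105, 90.6 and 83.3 CPM in vehicle time-restricted libraries 1 to 4. In FAN ad libitum libraries 6, 7, 10 and 12 it was at 37.3, 49.6, 22.1 and 13.1 CPM, and in FAN time-restricted libraries 6, 10, 11 and 12 at 42.2, 42.9, 33.7 and 51.5 CPM. All 8 FAN libraries were below all 8 vehicle libraries. The fitted log2 change with FAN was −1.70 ± 0.28 (SE, adjusted p = 5.16e-05, edgeR) ad libitum and −1.13 ± 0.28 (adjusted p = 0.00345) under restriction. Aqp3 passed in both comparisons without each library in turn. It passed among the low S numbers (−1.33 ad libitum, adjusted p = 0.000363; −1.29 restricted, adjusted p = 0.00409, with 1 FAN library) and among the high ones (−2.41, adjusted p = 2.67e-05; −1.04, adjusted p = 0.00543).

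Aqp2, the vasopressin-regulated apical channel on chr15:99579055-99584547 (plus strand), varied more within groups than Aqp3. Its levels were 102.7, 207, 239.8 and 89.9 CPM in vehicle ad libitum libraries 1 to 4 and 46.6, 221, 77.0 and 64.6 CPM in vehicle time-restricted libraries 1 to 4. FAN ad libitum libraries 6, 7, 10 and 12 had 44.2, 130.1, 29.0 and 22.0 CPM, and FAN time-restricted libraries 6, 10, 11 and 12 had 45.1, 52.3, 31.9 and 105 CPM. FAN ad libitum 7 and FAN time-restricted 10 and 12 were above the lowest vehicle library of their regimen, so the groups overlapped. The log2 change with FAN was −1.50 ± 0.64 (adjusted p = 0.0587) ad libitum and −0.82 ± 0.64 (adjusted p = 0.329) under restriction, with 95% intervals of −2.89 to −0.11 and −2.20 to 0.57. Ad libitum, the test passed without FAN ad libitum 7 (−2.33, adjusted p = 0.00625), without vehicle ad libitum 4 (−1.70, adjusted p = 0.0492) and among high S numbers alone (−2.70, adjusted p = 0.0162), and did not among low ones (−0.87, adjusted p = 0.539). It also passed by DESeq2 (−1.51, adjusted p = 0.0362), with only the 2 groups fitted (−1.55, adjusted p = 0.0324) and with the S number range as a covariate (−1.69, adjusted p = 0.0408). Aqp2 did not pass with scaling by total counts (−0.78, adjusted p = 0.291) or without the filter on low counts (adjusted p = 0.121). Nor did it pass without mitochondrial transcripts (0.0572), or without vehicle ad libitum 1, 2 or 3 or FAN ad libitum 6, 10 or 12 (0.0564 to 0.141).

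Aqp4, a second basolateral water channel, had the widest spread of the 9 genes. It stood at 165, 269, 255 and 100.7 CPM in vehicle ad libitum libraries 1 to 4, and at 29.6, 172, 88.6 and 109.8 CPM in vehicle time-restricted libraries 1 to 4. In FAN ad libitum libraries 6, 7, 10 and 12 it was at 10.3, 67.9, 11.4 and 8.12 CPM, and in FAN time-restricted libraries 6, 10, 11 and 12 at 20.5, 8.18, 3.42 and 155 CPM. The highest FAN time-restricted library exceeded the lowest by 45.3-fold. All 4 FAN ad libitum libraries were below all 4 vehicle ad libitum libraries, whereas under restriction the groups overlapped through FAN time-restricted 12 alone on the FAN side. The log2 change was −3.01 ± 1.11 (adjusted p = 0.0314) ad libitum and −1.13 ± 1.05 (adjusted p = 0.417) under restriction. Without FAN time-restricted 12 the restricted change was −3.22 (adjusted p = 0.0163). Ad libitum, Aqp4 no longer passed once any of vehicle ad libitum 2 (adjusted p = 0.06), vehicle ad libitum 3 (0.0576), FAN ad libitum 6 (0.0801), FAN ad libitum 10 (0.0775) or FAN ad libitum 12 (0.0788) was left out, with log2 changes from −2.72 to −2.87. Nor did it pass among low S numbers (−2.52, adjusted p = 0.221) or high ones (−4.20, adjusted p = 0.131) alone. An antisense gene overlaps Aqp4, and the strand setting of the counting is not given, so reads of the pair may be mixed.

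Promoter sequence was matched by symbol for 6 of the 9 genes in a RefSeq table of 32851 promoters on GRCm38.p6: Aqp2, Aqp3, Scnn1b, Scnn1g, Fxyd4 and Apela, and not for Aqp4, Scnn1a and Hsd11b2. The 250 bases before the start were searched on both strands for 4 motifs. They were a cyclic AMP response half-site (TGACG, which reads CGTCA on the other strand) and a GATA factor motif (AGATAA, which reads TTATCT on the other strand). The other two were a steroid receptor half-site (AGAACA, which reads TGTTCT on the other strand) and a TATA box (TATAAA, which reads TTTATA on the other strand). These letters were chosen because cyclic AMP and steroid hormones are the 2 classical signals to principal cells, and because GATA factors act in this lineage. Aqp2 and Aqp3, shown here because they were the members with a match and because they differ in how far they varied within groups, read as follows from 5′ to 3′ up to the base before the start, with matches in capitals. The Aqp2 window is chr15:99578806-99579055 on the plus strand and the Aqp3 window chr4:41098184-41098433 on the minus strand.
Aqp2: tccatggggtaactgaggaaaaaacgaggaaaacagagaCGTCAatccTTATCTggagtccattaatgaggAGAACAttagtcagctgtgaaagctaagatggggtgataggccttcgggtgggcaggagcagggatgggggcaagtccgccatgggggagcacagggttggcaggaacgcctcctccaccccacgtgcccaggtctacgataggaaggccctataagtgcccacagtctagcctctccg
Aqp3: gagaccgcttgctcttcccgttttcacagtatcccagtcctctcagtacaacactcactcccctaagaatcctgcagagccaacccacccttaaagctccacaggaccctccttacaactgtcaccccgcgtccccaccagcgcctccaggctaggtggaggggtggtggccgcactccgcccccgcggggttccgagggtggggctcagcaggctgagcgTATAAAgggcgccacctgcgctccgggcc
The Aqp2 window held the cyclic AMP half-site as CGTCA, beginning 211 bases before the start. It also held the GATA motif as TTATCT, 202 bases before the start, and the steroid half-site AGAACA at 179 bases, with no overlap between the 3. The Aqp3 window held TATAAA 29 bases before the start and none of the others. Of all promoters, 17.8% held the cyclic AMP half-site, 9.99% the GATA motif, 16.1% the steroid half-site and 12.4% the TATA box. These are matches of letters and not evidence of binding.

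Aqp2, Aqp4 and Aqp3 were mostly highest in the library of their group that was highest in inner medullary and most listed urothelial genes. Aqp3 had a narrower range. Within each group, the library with the highest summed CPM of 5 uroplakin genes (surface proteins of the urothelium that lines the renal pelvis) also had the highest Aqp2. These were vehicle ad libitum 3 at 128 CPM, vehicle time-restricted 2 at 100.98, FAN ad libitum 7 at 68.2 and FAN time-restricted 12 at 85.4 CPM of uroplakins. They were also highest in Aqp4 and in Aqp3 in every group but vehicle ad libitum, where library 2 was highest in both. In Fxyd4 and Apela, FAN ad libitum 7 and FAN time-restricted 12 were again the highest of their groups, and vehicle ad libitum 2 and vehicle time-restricted 3 led the others. The same 4 libraries led their groups in Slc14a2, the urea transporter of the inner medullary collecting duct, with 109, 112, 61.0 and 45.6 CPM. They led too in Akr1b3, the aldose reductase that makes the osmolyte sorbitol, with 1033, 567, 126 and 258 CPM, and in the principal cell transcription factor Elf5. Scnn1g was highest in another library in every group. Of the urothelial markers outside the 5 uroplakins, Krt5 was highest in the same 4 libraries. Krt20 was highest in vehicle ad libitum 3 and vehicle time-restricted 2 (5.61 and 3.90 CPM). In FAN, Krt20 was highest in FAN ad libitum 6 (56.95 CPM) and FAN time-restricted 10 (46.9 CPM), and lowest in FAN time-restricted 12 (16.2 CPM). Below the highest library, the order of the groups' libraries did not always match. FAN ad libitum 6 had fewer uroplakin reads than FAN ad libitum 10 (8.42 against 36.3 CPM). It had more Aqp2 (44.2 against 29.0 CPM) and more Aqp3 (37.3 against 22.1 CPM). The uroplakin sums ranged from 25.6 to 128 CPM in vehicle ad libitum, 25.5 to 100.98 in vehicle time-restricted, 8.42 to 68.2 in FAN ad libitum and 4.52 to 85.4 in FAN time-restricted libraries, so the groups overlapped. With the uroplakin level as a covariate in the fit, the ad libitum change of Aqp4 was −2.21 (adjusted p = 0.00178) and that of Aqp2 −0.94 (adjusted p = 0.0604). Under restriction the same fit gave 0.0005 for Aqp2 (adjusted p = 0.999) and −0.89 for Aqp4 (adjusted p = 0.165). How much inner medulla and pelvis each piece of kidney powder held was not tested.

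**Figure D2:**
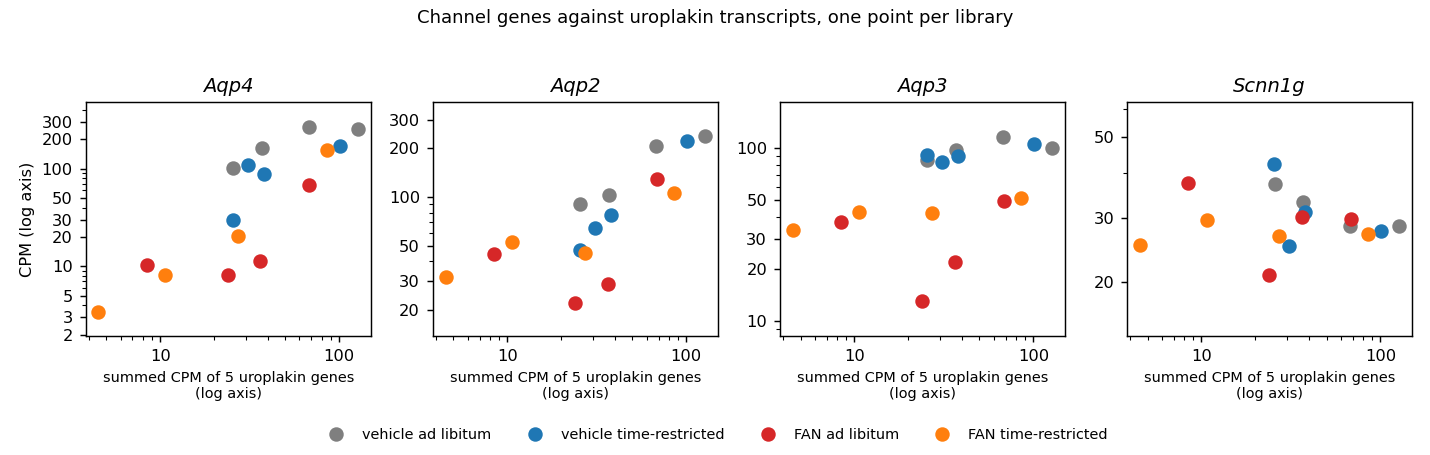
CPM of Aqp4, Aqp2, Aqp3 and Scnn1g against the summed CPM of 5 uroplakin genes, both on log axes, with 1 point per library coloured by group (n = 4 each). Within each group, the library with most uroplakin RNA is also that with most Aqp2, which does not hold across groups. Aqp3 is lower in every FAN library than in every vehicle library, and Scnn1g lies between 20.9 and 42.2 CPM throughout.

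Fxyd4 and Apela followed each other most closely of the genes that fell. Fxyd4 (chr6:117933559-117937692, minus strand) stood at 78.0, 102.3, 83.0 and 88.8 CPM in vehicle ad libitum libraries 1 to 4, and at 44.7, 62.5, 84.7 and 73.0 CPM in vehicle time-restricted libraries 1 to 4. FAN ad libitum libraries 6, 7, 10 and 12 had 18.2, 43.0, 21.0 and 22.1 CPM of it, and FAN time-restricted libraries 6, 10, 11 and 12 had 32.1, 28.0, 21.5 and 61.8 CPM. The ad libitum groups did not overlap, and under restriction only FAN time-restricted 12 reached the vehicle range. Fxyd4 changed by −1.75 ± 0.31 (log2, adjusted p = 0.000119) ad libitum and by −0.90 ± 0.31 (adjusted p = 0.0255) under restriction. The ad libitum call held without each library in turn and within both ranges of S numbers (−1.60, adjusted p = 0.0331; −2.00, adjusted p = 0.00558). Under restriction it was lost without vehicle time-restricted 3 (adjusted p = 0.0803) or 4 (0.0538) or FAN time-restricted 6 (0.0654), 10 (0.0759) or 11 (0.0561), with changes from −0.76 to −0.85. It was also lost within low (−0.81, adjusted p = 0.337) and high (−1.11, adjusted p = 0.0594) S numbers.

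Apela (chr8:65028417-65037336, minus strand) was at 50.1, 74.6, 60.1 and 65.2 CPM in vehicle ad libitum libraries 1 to 4 and at 30.4, 50.5, 53.7 and 48.2 CPM in vehicle time-restricted libraries 1 to 4. FAN ad libitum libraries 6, 7, 10 and 12 had 10.03, 22.4, 20.1 and 17.0 CPM, and FAN time-restricted libraries 6, 10, 11 and 12 had 27.1, 25.0, 15.6 and 39.7 CPM. Every FAN ad libitum library was below every vehicle library, and the restricted groups overlapped between FAN time-restricted 12 and vehicle time-restricted 1. Its log2 change was −1.85 ± 0.27 (adjusted p = 1.21e-05) ad libitum, called without each library in turn, and −0.78 ± 0.26 (adjusted p = 0.0238) under restriction. The restricted call was lost without vehicle time-restricted 2 (−0.73, adjusted p = 0.0531) or 3 (−0.69, 0.0664) or FAN time-restricted 10 (−0.75, 0.0572), and with the uroplakin level as a covariate (−0.48, adjusted p = 0.0557). Among low S numbers the values were −1.98 (adjusted p = 0.0252) ad libitum and −0.65 (adjusted p = 0.479) restricted, and among high ones −1.76 (adjusted p = 0.00213) and −0.95 (adjusted p = 0.0407). Another transcript on the same strand overlaps Apela, and a microRNA gene overlaps Fxyd4.

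The log2 ratio of Fxyd4 to Apela reads lay between 0.31 and 0.66 in all 8 vehicle libraries and between 0.06 and 0.94 in FAN libraries. After each gene was centred on its mean over the 16 libraries, the 2 profiles differed by a root mean square of 0.23 log2 units, against 0.45 between Fxyd4 and Aqp3 and 0.63 between Fxyd4 and Aqp2. Their promoters are shown because the 2 genes moved together: Fxyd4 at chr6:117937336-117937585 and Apela at chr8:65037337-65037586, both on the minus strand. The Fxyd4 window precedes the RefSeq start but lies wholly within the longer GENCODE gene given above.
Fxyd4: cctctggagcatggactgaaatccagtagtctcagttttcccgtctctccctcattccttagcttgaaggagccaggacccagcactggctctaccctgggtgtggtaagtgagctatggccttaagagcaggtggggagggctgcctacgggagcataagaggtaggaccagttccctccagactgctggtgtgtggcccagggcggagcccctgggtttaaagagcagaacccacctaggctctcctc
Apela: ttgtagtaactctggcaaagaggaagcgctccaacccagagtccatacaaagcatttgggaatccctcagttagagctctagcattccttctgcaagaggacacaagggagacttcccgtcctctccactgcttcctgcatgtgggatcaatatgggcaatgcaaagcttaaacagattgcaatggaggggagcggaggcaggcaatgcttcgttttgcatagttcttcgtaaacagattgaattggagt
Neither window held any of the 4 motifs searched, and the windows differed in base composition, with 58.0% G and C in Fxyd4 and 48.0% in Apela against a median of 52.4% over all promoters.

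The 3 ENaC subunits did not move as 1 unit. Scnn1a (chr6:125320659-125344943, plus strand), the alpha subunit needed for a working channel, was at 107, 117, 115 and 127 CPM in vehicle ad libitum libraries 1 to 4 and at 98.2, 102.4, 122 and 65.5 CPM in vehicle time-restricted libraries 1 to 4. In FAN time-restricted libraries 6, 10, 11 and 12 it was at 34.2, 39.0, 35.6 and 30.0 CPM, all below every vehicle library. The FAN ad libitum libraries were split, with 105.7 and 99.03 CPM in libraries 6 and 7 and 42.0 and 29.8 CPM in libraries 10 and 12. Libraries 6 and 7 have low S numbers and 7.29% and 6.94% mitochondrial counts, and libraries 10 and 12 have high S numbers and 14.8% and 12.1%; the part of either in the split was not tested. Under restriction the library with a low S number, FAN time-restricted 6, was as low in Scnn1a as the other 3.

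Scnn1a changed with FAN by −0.75 ± 0.30 (log2, adjusted p = 0.0408) ad libitum and by −1.48 ± 0.31 (adjusted p = 0.00102) under restriction. The restricted change was called without each library in turn and within low (−1.62, adjusted p = 0.000572, with 1 FAN library) and high (−1.43, adjusted p = 0.00193) S numbers. The ad libitum change was −0.17 (adjusted p = 0.278) within low and −1.76 (adjusted p = 0.00047) within high S numbers. It was lost without vehicle ad libitum 1 (adjusted p = 0.0522), 2 (0.0674), 3 (0.0619) or 4 (0.0789), without FAN ad libitum 10 (−0.57, adjusted p = 0.123) or 12 (−0.50, adjusted p = 0.0907), and with libraries scaled by total counts (−0.03, adjusted p = 0.937).

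Scnn1b (chr7:121865038-121918514, plus strand) ranged from 48.9 to 59.3 CPM in vehicle ad libitum, 46.2 to 70.5 in vehicle time-restricted, 35.8 to 54.5 in FAN ad libitum and 38.0 to 52.4 CPM in FAN time-restricted libraries. Scnn1g (chr7:121734479-121768475, plus strand), which lies next to it, ranged from 28.4 to 37.1, 25.1 to 42.2, 20.9 to 37.4 and 25.3 to 29.5 CPM in the same order. FAN and vehicle overlapped for both genes under both regimens. Ad libitum, their log2 changes were −0.16 (95% interval −0.46 to 0.15, adjusted p = 0.378) for Scnn1b and −0.10 (−0.46 to 0.25, adjusted p = 0.625) for Scnn1g, and with scaling by total counts both turned positive, at 0.55 and 0.60. Under restriction they were −0.33 (−0.64 to −0.02, adjusted p = 0.0757) and −0.22 (−0.58 to 0.14, adjusted p = 0.328). These intervals leave room for a fall of up to 0.64 log2 units. Scnn1b passed under restriction, as lower, without vehicle time-restricted 4 (−0.43, adjusted p = 0.0266) or FAN time-restricted 11 (−0.46, adjusted p = 0.0289). It also passed with only the groups compared (−0.36, adjusted p = 0.0476) and with the uroplakin level as a covariate (−0.44, adjusted p = 0.0333). The other alternatives did not call it. Cog7 overlaps Scnn1b on the opposite strand, so their reads may be mixed.

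The Scnn1g promoter, shown as that of a subunit whose RNA overlapped across all groups, is at chr7:121734229-121734478 on the plus strand.
Scnn1g: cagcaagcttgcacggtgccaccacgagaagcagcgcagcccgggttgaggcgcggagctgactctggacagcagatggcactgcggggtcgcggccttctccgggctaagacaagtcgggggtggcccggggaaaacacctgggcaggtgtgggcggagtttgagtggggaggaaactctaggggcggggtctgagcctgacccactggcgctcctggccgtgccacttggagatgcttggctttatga
It held none of the 4 motifs and was 65.2% G and C.

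A ratio of subunits within 1 library does not depend on how libraries are scaled. In vehicle libraries the log2 ratio of Scnn1a to Scnn1g reads was 1.69 to 2.04 with food ad libitum and 1.22 to 1.97 with restriction. It was 1.50, 1.73, 0.48 and 0.51 in FAN ad libitum libraries 6, 7, 10 and 12, and 0.36, 0.40, 0.49 and 0.15 in FAN time-restricted libraries 6, 10, 11 and 12. Thus 6 of 8 FAN libraries lay below the whole vehicle range, and FAN ad libitum 6 and 7 lay inside it. The ratio of Scnn1b to Scnn1g stayed between 0.42 and 1.05 in all 16 libraries, with no group apart from the others. The ratio of Scnn1a to Scnn1b went from 0.48 to 1.36 in vehicle libraries to −0.27 to −0.56 in FAN time-restricted ones.

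**Figure D3:**
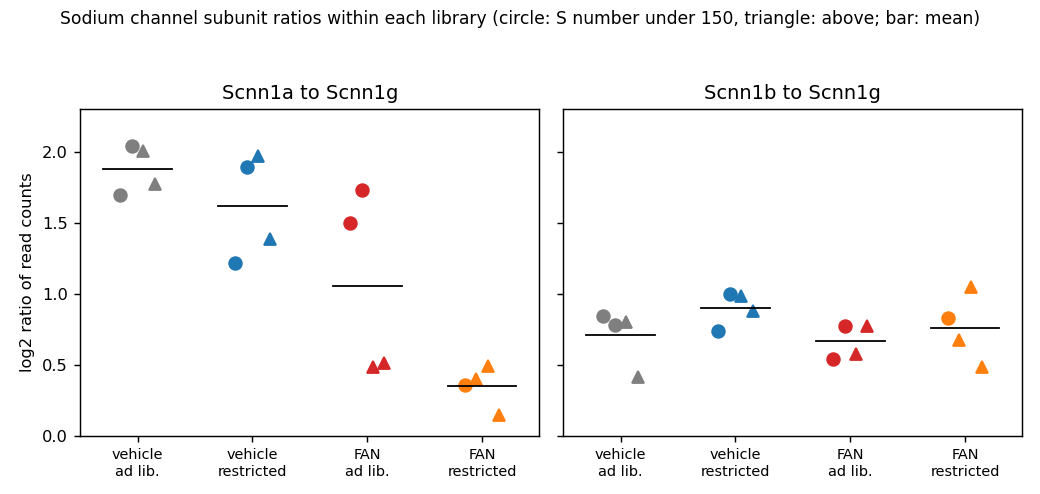
Log2 ratio of Scnn1a to Scnn1g reads (left) and of Scnn1b to Scnn1g reads (right) in each library, by group (n = 4 each); circles have an S number under 150, triangles above, and bars are means. The 4 FAN time-restricted libraries and FAN ad libitum 10 and 12 lie between 0.15 and 0.51 on the left, below all vehicle libraries, while the groups overlap on the right.

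Hsd11b2 (chr8:105518755-105523988, plus strand), the enzyme that guards the mineralocorticoid receptor, did not separate the groups either. It ranged from 56.1 to 92.0 CPM in vehicle ad libitum, 50.5 to 79.7 in vehicle time-restricted, 41.7 to 88.9 in FAN ad libitum and 55.8 to 69.9 CPM in FAN time-restricted libraries. The groups overlapped, with log2 changes of −0.13 (95% interval −0.59 to 0.32, adjusted p = 0.619) ad libitum and −0.21 (−0.67 to 0.25, adjusted p = 0.461) under restriction; scaling by total counts turned the first positive, at 0.58. The centred profiles of Scnn1g and Hsd11b2 differed by 0.20 log2 units and those of Scnn1b and Scnn1g by 0.18, the smallest distances among the 9 genes.

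Feeding within FAN-treated mice gave 1 call among the 9 genes, a fall of Scnn1a, against 13.9% of all tested genes called lower and 17.9% called higher. With scaling by total counts 4 of the 9 were called, all lower, and the share of all called genes that were higher went from 56.4% to 8.61%. The comparison uses the same FAN libraries as those above. Scnn1a was lower in FAN time-restricted than in FAN ad libitum kidneys by 0.99 ± 0.31 log2 units (adjusted p = 0.0201), but the groups overlapped, since FAN ad libitum 12 was at 29.8 CPM. The change was −1.61 (adjusted p = 0.00137) among low S numbers, where FAN time-restricted has 1 library, and −0.03 (adjusted p = 0.949) among high ones. Scnn1a no longer passed once FAN ad libitum 6 (−0.71, adjusted p = 0.0948), FAN ad libitum 7 (−0.77, 0.0888), FAN time-restricted 6 (−0.98, 0.0503) or FAN time-restricted 12 (−0.93, 0.0569) was left out, or with the S number range as a covariate (−0.81, adjusted p = 0.0592).

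The other 8 genes did not pass in that comparison. Apela had the largest shift upwards relative to its error, at 0.62 ± 0.26 (95% interval 0.06 to 1.17, adjusted p = 0.082), with 3 of 4 FAN time-restricted libraries above all 4 FAN ad libitum libraries. It passed without FAN time-restricted 11 (0.80, adjusted p = 0.0202). Aqp3 stood at 0.47 ± 0.27 (adjusted p = 0.201) and Fxyd4 at 0.44 ± 0.31 (adjusted p = 0.286); without FAN ad libitum 7, Aqp3 passed at 0.81 (adjusted p = 0.0249). Aqp3 was 1.28 higher (adjusted p = 0.00378) among high S numbers and −0.07 (adjusted p = 0.834) among low ones. With libraries scaled by total counts, Apela, Aqp3 and Fxyd4 were at −0.04, −0.20 and −0.24.

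Feeding within vehicle mice gave no call among the 9 genes or among the 17731 tested (0% called, edgeR). An unadjusted p under 0.05 was found for 1143 genes, and DESeq2 called 58. The log2 changes of the 9 genes ran from −0.98 ± 1.04 for Aqp4 to 0.17 ± 0.15 for Scnn1b. Apela and Fxyd4 stood at −0.45 ± 0.26 and −0.41 ± 0.30, with unadjusted p of 0.0996 and 0.191. The test of whether FAN acted differently under the 2 regimens, the interaction, called none of the 9 either (3 lower with scaling by total counts), against 9.16% of all tested genes; of the 9, only Apela had an unadjusted p under 0.05. Apela came nearest, with an interaction of 1.07 ± 0.37 log2 units (adjusted p = 0.0802), which passed without FAN time-restricted 11 (1.25, adjusted p = 0.0247) and by DESeq2 (1.04, adjusted p = 0.0454). Fxyd4 had 0.85 ± 0.43 (adjusted p = 0.24), and Scnn1a had −0.73 ± 0.43 (adjusted p = 0.316). Within low S numbers, with 1 FAN time-restricted library, the interaction of Scnn1a was −1.45 (adjusted p = 0.0122) and within high ones 0.33 (adjusted p = 0.714). A larger fall of Scnn1a, or a smaller fall of Apela, under restriction was therefore not shown.

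**Figure D4:**
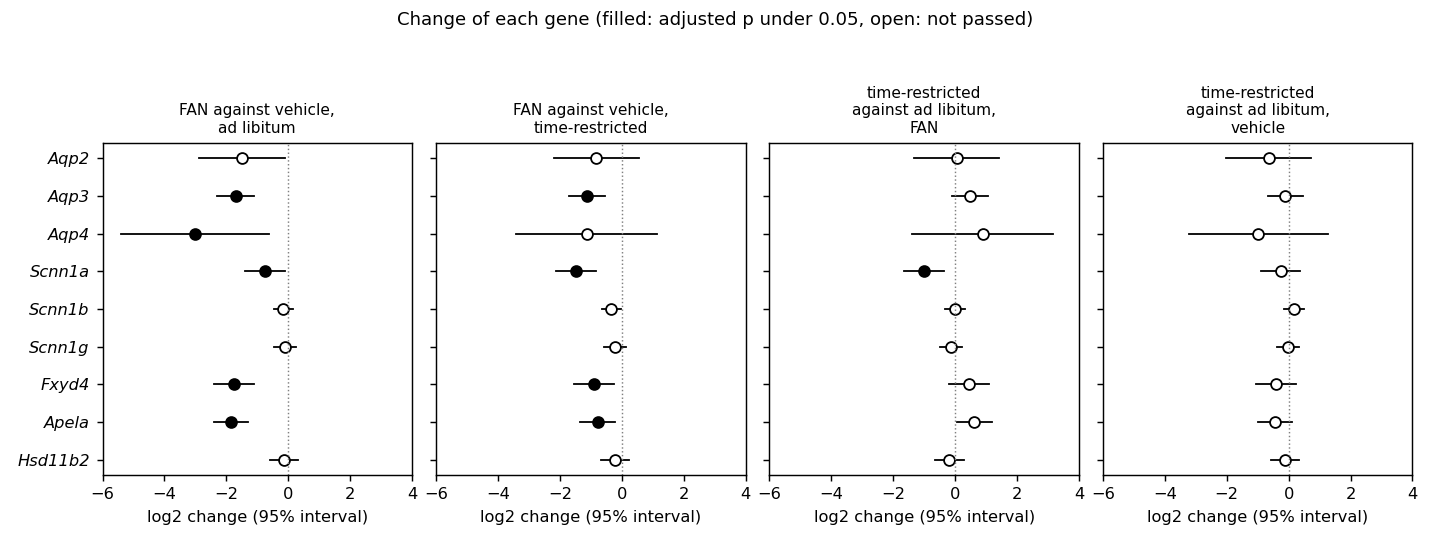
Log2 change of each gene with its 95% interval in 4 comparisons, from 1 fit of all 16 libraries (n = 4 per group); filled points have an adjusted p under 0.05. In the 2 left panels (FAN against vehicle) Aqp3, Scnn1a, Fxyd4 and Apela are filled in both, Aqp4 has the widest intervals, and in the third panel only Scnn1a is filled.

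Few genes listed for vasopressin and cyclic AMP signalling fell. Of 14 genes listed for vasopressin and cyclic AMP signalling, 13 were tested; FAN raised 7 and lowered 1 ad libitum, where 32.1% and 28.6% of all tested genes were called, and raised 5 and lowered 1 under restriction, where the shares were 24.5% and 19%. Avpr2, the vasopressin receptor, had only 2 to 20 reads per library and was not tested, and 2 genes on the opposite strand overlap it. Cftr, a cyclic AMP-activated chloride channel, stood at 2.59 to 3.02 CPM in vehicle ad libitum and 19.3 to 19.6 CPM in FAN ad libitum libraries, and rose by 2.81 ± 0.16 log2 units (adjusted p = 2.6e-10). Under restriction Cftr rose by 2.05 ± 0.16 (adjusted p = 3.4e-08), and it was lower in restricted than in ad libitum FAN kidneys by 0.48 ± 0.15 (adjusted p = 0.0191), a call lost without FAN time-restricted 12 (−0.36, adjusted p = 0.0685). Adcy3, an adenylyl cyclase, rose by 1.87 ± 0.34 with FAN ad libitum (adjusted p = 0.000113) and fell by 1.63 ± 0.34 with restriction in FAN kidneys (adjusted p = 0.00143). The cyclic AMP-responsive factors Crem (0.74 and 0.87 in the 2 regimens) and Creb1 (0.83 under restriction) also rose with FAN. Ad libitum, Creb1 stood at 36.2 to 41.9 CPM in vehicle and 51.5 to 72.3 CPM in FAN libraries. Prkaca, a catalytic subunit of the cyclic AMP-dependent kinase, went the other way. Under restriction it stood at 42.0 to 60.2 CPM in vehicle and 26.3 to 32.3 CPM in FAN libraries. Ad libitum it stood at 46.4 to 55.0 CPM in vehicle and 22.2 to 47.7 CPM in FAN libraries, which overlapped.

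Genes that carry the aldosterone signal and process ENaC changed in both directions. Of 14 listed and tested, FAN raised 4 and lowered 5 ad libitum, raised 4 and lowered 2 under restriction, and restriction in FAN kidneys raised 4 and lowered 2. These counts are near the shares of all tested genes (32.1% and 28.6%, 24.5% and 19%, and 17.9% and 13.9%). Prss8, the protease prostasin that activates ENaC by cleavage, stood at 350.3 to 376 CPM in vehicle ad libitum, 66.9 to 116 in FAN ad libitum and 152 to 195 in FAN time-restricted libraries. Prss8 fell with FAN by 2.02 ± 0.15 ad libitum (adjusted p = 3.59e-09) and 1.28 ± 0.15 restricted (adjusted p = 2.31e-06). It is also made by other tubule segments. Nr3c2, the mineralocorticoid receptor, fell by 0.46 ± 0.18 with FAN ad libitum (adjusted p = 0.0326) and was at −0.04 ± 0.18 under restriction (adjusted p = 0.89). The ad libitum call was lost without vehicle ad libitum 1 (−0.37, adjusted p = 0.107) or 4 (−0.44, 0.0661) or FAN ad libitum 12 (−0.33, 0.111), and Nr3c2 was at 0.24 with scaling by total counts. Nedd4l, the ubiquitin ligase that removes ENaC from the membrane, was at −0.13 and −0.29 (adjusted p = 0.478 and 0.118), and at 0.58, past the threshold, ad libitum with scaling by total counts.

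Sgk1, the kinase that aldosterone and glucocorticoids induce and that protects ENaC from removal, was at 76.4, 83.2, 46.1 and 24.8 CPM in FAN ad libitum libraries 6, 7, 10 and 12. In FAN time-restricted libraries 6, 10, 11 and 12 it was at 121, 113, 141 and 147 CPM, all higher, and in vehicle libraries it ranged from 62.5 to 184 CPM. Sgk1 fell with FAN ad libitum by 1.04 ± 0.34 (adjusted p = 0.0136; −0.76 and 0.0575 without vehicle ad libitum 3), was higher with restriction in FAN kidneys by 1.18 ± 0.34 (adjusted p = 0.0146), and had an interaction of 1.51 ± 0.48 (adjusted p = 0.0597). Its fellow steroid-induced gene Tsc22d3 (GILZ) was higher by 0.83 ± 0.19 in restricted FAN kidneys (adjusted p = 0.00343), with an interaction of 1.15 ± 0.27 (adjusted p = 0.0123). Scnn1a, whose RNA aldosterone is known to raise in the distal nephron, was lower in the same comparison, by the 0.99 given above. Cnksr3, an aldosterone-induced scaffold of ENaC, was also lower with restriction in FAN kidneys, by 0.55 ± 0.13 (adjusted p = 0.00425). With FAN, Cnksr3 rose by 1.20 ± 0.13 ad libitum and 0.94 ± 0.14 restricted, Usp2 fell ad libitum by 1.95 ± 0.25, and the glucocorticoid receptor Nr3c1 rose by 0.72 ± 0.14 under restriction (adjusted p at most 0.000447).

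Among 8 genes of the basolateral pump and potassium exit, FAN lowered 3 ad libitum and 2 under restriction, near the 28.6% and 19% of all tested genes, and raised none. Atp1b1, the pump's beta subunit, fell by 0.63 ± 0.20 ad libitum (adjusted p = 0.0102), but was at 0.07 with scaling by total counts. Kcnj1 (ROMK), the apical potassium channel, was at −0.17 ± 0.22 and 0.09 ± 0.22, and at 0.51, past the threshold, ad libitum with scaling by total counts. Fxyd2, the pump's gamma subunit, fell by 2.55 ± 0.16 and 1.28 ± 0.16, with an interaction of 1.27 ± 0.22 (adjusted p = 0.00114). Kcnj16 fell by 0.88 ± 0.15 ad libitum (adjusted p = 6.43e-05) and was 0.81 ± 0.15 higher with restriction in FAN kidneys (adjusted p = 0.000598); with scaling by total counts these were −0.19 and 0.17 and did not pass. Kcnma1 fell by 0.60 ± 0.22 under restriction (adjusted p = 0.0346), a call lost without vehicle time-restricted 2 (−0.45, adjusted p = 0.136) or 3 (−0.55, 0.0856) or FAN time-restricted 11 (−0.54, 0.0701) or 12 (−0.59, 0.0605).

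The receptor of Apela moved opposite to its ligand. Aplnr stood at 1.82 to 3.93 CPM in vehicle ad libitum, 1.77 to 2.498 in vehicle time-restricted, 12.5 to 16.6 in FAN ad libitum and 6.82 to 12.1 CPM in FAN time-restricted libraries, with FAN above vehicle in every case. Aplnr rose with FAN by 2.38 ± 0.25 (adjusted p = 1.91e-07) and 2.05 ± 0.25 (adjusted p = 5.05e-06) and was lower with restriction in FAN kidneys by 0.76 ± 0.23 (adjusted p = 0.0177). For that feeding difference, leaving out FAN time-restricted 6 (−0.70, adjusted p = 0.0558) or 10 (−0.66, 0.063) or FAN ad libitum 6 (−0.69, 0.0535) ended the call. The other ligand, Apln, did not pass in either comparison, at −0.48 ± 0.23 (adjusted p = 0.0754) and −0.37 ± 0.23 (adjusted p = 0.203). Aplnr is best known from blood vessels and not from principal cells, and endothelial markers had 1 of 4 higher ad libitum and 2 of 4 under restriction, where 32.1% and 24.5% of all tested genes were.

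Several water channels of other cells fell too. Of 6 other aquaporins tested, FAN lowered 3 and raised 1 ad libitum and lowered 4 and raised 1 under restriction (28.6% and 19% of all tested genes were lower). Aqp1, of proximal tubule and thin limb, fell by 2.33 ± 0.23 ad libitum (adjusted p = 9.4e-08) and by 1.21 ± 0.22 restricted (adjusted p = 0.000254). Aqp11 fell by 2.72 ± 0.15 and 0.88 ± 0.14, with an interaction of 1.85 ± 0.20 (adjusted p = 3.2e-05), and Aqp7 fell by 1.90 ± 0.19 and 1.53 ± 0.19. Restriction in FAN kidneys left Aqp11 higher by 1.81 ± 0.14 and Aqp1 by 0.84 ± 0.22 (adjusted p = 1.52e-07 and 0.00748), whereas none of Aqp2, Aqp3 and Aqp4 passed there. Of 4 other FXYD genes tested, FAN raised 2 under each regimen, where 32.1% and 24.5% of all tested genes were higher. Fxyd5 rose by 1.67 ± 0.19 and 1.63 ± 0.19, and Fxyd6 by 1.32 ± 0.17 and 1.15 ± 0.17.

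Of 6 genes of medullary tonicity and urea, FAN lowered 2 and raised 1 ad libitum and lowered 1 under restriction. Of all tested genes, 28.6% were lower and 32.1% higher ad libitum, and 19% were lower under restriction. Slc6a12, the betaine transporter, fell by 3.49 ± 0.73 ad libitum (adjusted p = 0.000628) and by 3.40 ± 0.82 restricted (adjusted p = 0.00341), from 1.52 to 13.3 CPM in vehicle libraries to 0.0774 to 1.49 CPM in FAN libraries. Akr1b3 fell ad libitum by 2.57 ± 0.82 (adjusted p = 0.0152), with overlapping groups, and the call was lost without vehicle ad libitum 3 (−1.64, adjusted p = 0.0752). Nfat5, the tonicity-responsive transcription factor, rose by 0.81 ± 0.16 (adjusted p = 0.000335) ad libitum and was 0.53 ± 0.16 lower with restriction in FAN kidneys (adjusted p = 0.0194), a call that ended without FAN time-restricted 11 (−0.42, adjusted p = 0.0537) or FAN ad libitum 7 (−0.45, 0.0664). Slc14a2 did not pass, at −1.36 ± 0.82 (adjusted p = 0.168) and −1.83 ± 0.85 (adjusted p = 0.0988).

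Other markers of principal cells gave no call downwards with FAN. Of the 4 tested (Elf5, Gata3, Npnt and Hoxb7), none passed ad libitum and 1, Hoxb7, was higher by 0.30 ± 0.10 under restriction (adjusted p = 0.0255). Over all tested genes, 32.1% were called higher and 28.6% lower ad libitum, and 24.5% higher and 19% lower under restriction. The Hoxb7 call held in only 2 of the 8 fits that each left out 1 library (adjusted p up to 0.0796). Elf5, the least abundant, was at 8.60, 20.9, 31.4 and 6.81 CPM in vehicle ad libitum libraries 1 to 4 and at 2.70, 13.2, 1.30 and 2.91 CPM in FAN ad libitum libraries 6, 7, 10 and 12. Its groups overlapped, with log2 changes of −1.73 ± 0.94 (adjusted p = 0.127) ad libitum and −1.02 ± 0.96 (adjusted p = 0.422) under restriction, and it passed ad libitum without FAN ad libitum 7 (−2.85, adjusted p = 0.0291). The sum of the 4 markers, most of which is Npnt, was 147 to 196 CPM in vehicle ad libitum, 116 to 170.4 in vehicle time-restricted, 154 to 241 in FAN ad libitum and 137 to 179.9 CPM in FAN time-restricted libraries. Of 9 collecting duct transcription factors, FAN raised 2 and lowered 1 ad libitum and raised 2 and lowered none under restriction. The same shares of all tested genes apply to these counts. Elf3 rose by 1.06 ± 0.29 ad libitum (adjusted p = 0.00392), called without each library in turn. Its call under restriction (0.80 ± 0.29, adjusted p = 0.034) held in 2 of 8 fits that left out 1 library each, over which the change was 0.60 to 1.14. Foxi1 (of intercalated cells) was at −0.53 ± 0.20 ad libitum (adjusted p = 0.0246), called in 5 of 8 such fits, and at 0.16 with scaling by total counts.

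Markers of neighbouring and unrelated cells moved in the same libraries. Of all tested genes, 28.6% were lower with FAN ad libitum and 19% under restriction. Intercalated cell markers had 7 of 10 lower ad libitum and 4 of 10 under restriction, with sums of 327 to 528 CPM in vehicle, 173 to 268 in FAN ad libitum and 267 to 331 in FAN time-restricted libraries. Connecting tubule markers were mixed: Trpv5 and Slc8a1 rose by 2.27 ± 0.36 and 1.70 ± 0.30 ad libitum and Klk1 fell by 2.03 ± 0.22. Proximal tubule markers had 5 of 7 lower under each regimen, with sums of 6790 to 9061 CPM in vehicle, 959 to 2562 in FAN ad libitum and 3625 to 4600 in FAN time-restricted libraries. Macrophage markers summed to 74.1 to 147 CPM in vehicle, 882 to 1711 in FAN ad libitum and 487 to 999 CPM in FAN time-restricted libraries. Urothelial markers had 1 of 7 higher under each regimen, where 32.1% and 24.5% of all tested genes were. The part of these shifts in the values of the 9 genes was not tested.

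The genes whose centred profiles lay nearest to each member were taken from the 11243 genes with a mean of at least 5 CPM, by root mean square difference over the 16 libraries, as a description. For Aqp4 they were Psca (0.55 log2 units), Elf5 (0.79) and Upk3b (0.86), where Aqp4 itself varied by 1.99. For Aqp2 they were Arl4d (0.42), Shisa7 (0.49) and Gstm2 (0.49). Aqp3 lay nearest to Pdzd2, Bmp7 and Pdk2 (0.23 to 0.24), and Scnn1a to Cdhr5, Slc12a7 and Sec31a (0.28 to 0.31). Fxyd4 and Apela had Wasf3 as their common nearest gene (0.30 for both) and also shared Mpped2 (0.32 and 0.34), and Tmem45b (0.33) was near Fxyd4 and Fgf1 (0.30) near Apela. Scnn1g and Hsd11b2 had Aph1a in common (0.14 and 0.19), followed by Tgfbrap1 and Ncor1 (both 0.16) for Scnn1g and by Cdc42bpg and Sik3 (both 0.20) for Hsd11b2. Scnn1b lay nearest to Pfas, Flcn and Wbp1l (0.14 to 0.15). Genes with little variation, such as the last 3 members, have near neighbours for that reason alone.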

How the data were processed

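RNA of 16 mouse kidney samples was extracted with TRIzol from frozen powder and sequenced with a stranded poly(A) kit, per the labels' protocols. The values used are the raw read counts per gene that the authors deposited. The submitters' processing notes name the mm10 build and the tools STAR 2.5.3a, FastQC 0.11.5 and edgeR 3.26.7; the counting tool and strand setting are not given in the sources used here. Columns of FAN libraries show a group but no sample title, and were used by group.

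These counts went into edgeR 4.0.16 under R 4.3.3: filterByExpr by group (minimum count 10, 17731 of 52338 genes kept), TMM, 1 robust quasi-likelihood fit of 4 groups, a two-sided test and Benjamini-Hochberg adjustment over all genes (threshold 0.05). CPM are TMM-scaled, and levels per kilobase use the deposited transcript lengths. Profiles used log2 CPM with a prior count of 2. The fit was tested on simulated data. A count of 0 allows up to 3 counts, or 0.0883 to 0.241 CPM, for counting error only. Any 2 libraries of a group differed beyond sampling noise (chi-square per gene of at least 17.2).

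The 9 genes and the pathway and marker lists were chosen with earlier results of these data known. Named pathway genes are the 3 with the smallest adjusted p past the threshold per list and comparison, plus Avpr2, Nr3c2, Sgk1, Nedd4l, Kcnj1 and Aplnr. Trpv5, Slc8a1, Klk1, Apln, Slc14a2, Elf5, Gata3, Npnt, Prkaca, Krt5 and Krt20 were named after their values were seen. A few genes of the pathway lists are not reported here. Gene positions are from GENCODE M21 (GRCm38), and promoters from a RefSeq table (GRCm38.p6). Alternatives were library size scaling, no filter, no mitochondrial transcripts, an S number covariate, only the groups compared, DESeq2 1.42.0, a replicate block and leaving out each library. Fits within S number ranges, without FAN ad libitum 7 and FAN time-restricted 12, and with the uroplakin level as a covariate were chosen after seeing the data.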

Additional observations from a re-analysis of the deposited data

Results flagged for a closer look

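Each of the 9 genes was scanned for a library far from the other 3 of its group, in 36 groups of 4; chance alone flags about 1 in 20. Aqp4 in FAN ad libitum 7, at 67.9 CPM, was far above the other 3 FAN ad libitum libraries (8.12 to 11.4 CPM), and the same library had the most uroplakin and Slc14a2 RNA of its group. Scnn1b in vehicle ad libitum 1, at 59.3 CPM, stood above 48.9 to 49.7 CPM in the other 3. Hsd11b2 in vehicle time-restricted 4, at 50.5 CPM, stood below 76.5 to 79.7 CPM in the other 3; that library was also the lowest of its group in Scnn1a, at 65.5 CPM.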

How the results depend on the processing

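Aqp3, Fxyd4 and Apela were lower with FAN ad libitum, and Aqp3 and Scnn1a with FAN under restriction, in every alternative run; the calls of Scnn1a and Aqp4 ad libitum, of Fxyd4 and Apela under restriction and of Scnn1a with feeding were not kept in all. Causes were not tested except where the alternative's own construction shows them (fewer libraries or genes). Leaving out each library in turn gave 3 to 6 of 9 members called for FAN ad libitum, 2 to 5 for FAN under restriction, 0 to 2 for feeding in FAN and 0 to 1 for the interaction, against 5, 4, 1 and 0; the low counts came without vehicle ad libitum 2 or 3 or FAN ad libitum 10 or 12, without vehicle time-restricted 3 or FAN time-restricted 10, and without FAN ad libitum 6 or FAN time-restricted 6 or 12.

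With scaling by library size, 6 members were called for FAN ad libitum (3 lower and, reversed from TMM, 3 higher: Scnn1b 0.55, Scnn1g 0.60 and Hsd11b2 0.58), and Atp1b1 (0.070), Foxi1 (0.16), Nr3c2 (0.24; 0.063 under restriction), Nedd4l (0.58), Kcnj1 (0.51), Tsc22d3 (0.072) and Apln (0.22) also turned positive. It called 4 for feeding in FAN, all lower, and 3 for the interaction, all lower; Apela (−0.044), Aqp2 (−0.66), Aqp3 (−0.20) and Fxyd4 (−0.24) turned negative for feeding in FAN, and Aqp3 (−0.045) in the interaction. It moved the median of all genes from 0.06 to 0.76 for FAN ad libitum, from −0.02 to −0.67 for feeding in FAN and from 0.02 to −0.57 in the interaction. The share of called genes that were higher went from 52.8% to 83.9%, from 56.3% to 67.2% for FAN under restriction, from 56.4% to 8.61% for feeding in FAN and from 84.7% to 7.6% in the interaction (73.1% with DESeq2).

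Without the filter on low counts, 3, 2 and 0 members were called for FAN ad libitum, FAN under restriction and feeding in FAN. Feeding in FAN gave 0 with the S number covariate (Scnn1b 0.055; interaction of Hsd11b2 0.045), 0 with only the 2 groups compared, and 0 without FAN ad libitum 7 and FAN time-restricted 12 (Scnn1b 0.12; interaction of Hsd11b2 0.10). DESeq2 called 1 member in the interaction, and gave 0.0022 for Scnn1g with feeding in vehicle. Low S numbers gave 3 members for FAN ad libitum (Scnn1g 0.090, Hsd11b2 0.13, Nedd4l 0.15), 2 under restriction (Nr3c2 0.21) and 1 in the interaction (Aqp2 −0.77), with Aqp2 −0.97, Aqp3 −0.070 and Aqp4 −0.95 for feeding in FAN and Scnn1g 0.18 for feeding in vehicle. High S numbers gave Kcnj1 at 0.067 for FAN ad libitum and −0.12 under restriction, and 1 in the interaction (Aqp3), with Scnn1a 0.33, Scnn1b 0.064, Scnn1g 0.32 and Hsd11b2 0.45 there, and Scnn1b 0.19, Scnn1g 0.10 and Hsd11b2 0.27 for feeding in FAN. With the uroplakin covariate, 3 were called for feeding in FAN (Fxyd4 and Apela higher, Scnn1a lower) and 1 in the interaction (Apela), and Aqp2 under restriction was 0.0005.

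Signs that changed when 1 library was left out were of genes that did not pass: for FAN ad libitum Scnn1g (−0.24 to 0.032), Hsd11b2 (−0.27 to 0.049) and Nedd4l (−0.23 to 0.0025); for FAN under restriction Nr3c2 (−0.14 to 0.030); for feeding in FAN Aqp2 (−0.38 to 0.87), Aqp4 (−1.19 to 2.20), Scnn1b (−0.11 to 0.078) and Scnn1g (−0.26 to 0.013); for feeding in vehicle Scnn1g (−0.18 to 0.085) and Hsd11b2 (−0.23 to 0.023); in the interaction Aqp4 (−0.21 to 3.18), Scnn1g (−0.25 to 0.063) and Hsd11b2 (−0.26 to 0.059).

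Feeding groups share replicate numbers, and same-numbered libraries deviated together weakly or not at all (correlations of −0.15 to 0.18 in vehicle and −0.25 to −0.05 in FAN). Vehicle ad libitum 1 and 2 each correlated best with the vehicle time-restricted library of the same number (0.18 and 0.12). The numbers were not taken to pair samples, but for vehicle this is not settled. With the replicate block, feeding in FAN called 3 members, Aqp3 (1.02), Fxyd4 (0.90) and Apela (0.99), all higher. It did not call Scnn1a (−0.57, adjusted p = 0.226), and Hsd11b2 was at 0.042. FAN ad libitum 7 and FAN time-restricted 11 share no number, so they add nothing to this feeding comparison. It rests on the libraries numbered 6, 10 and 12, so pairing and the loss of these libraries cannot be told apart. Feeding in vehicle called 0 with the block. Over all genes, the block gave 2336 calls for feeding in FAN against 5639. Depth did not limit the 9 genes, whose lowest count was 87. Avpr2 did not pass the filter on low counts, and the cause of its low counts was not tested.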
